A study of Mus musculus with 17 samples.

Results

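The genes described here are 10 genes of the glucocorticoid response, followed in microvessels isolated from mouse cerebral cortex. They are Nr3c1, Fkbp5, Sgk1, Tsc22d3, Zbtb16, Pdk4, Cdkn1a, Mt1, Mt2 and Dusp1. They were chosen by symbol, and each symbol matched 1 Ensembl gene among the 42687 genes of the count table. All 10 were among the 18753 genes with enough counts to be tested, and the smallest count of any of them in a library was 52.

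RNA was sequenced from 17 libraries of cortical microvessels, a preparation that the labels describe as endothelial cells, pericytes and astrocytic endfeet. The study crossed genotype with a peptide that blocks NOX2, a superoxide-producing NADPH oxidase, and its title concerns vascular oxidative stress and neutrophils held in brain capillaries. The mice were wild type (WT) or APP/PS1, a transgenic amyloid model of Alzheimer's disease that the sample labels write as APP, and all were 10 to 11 months old. Mice of all 4 groups received a peptide intraperitoneally at 10 mg/kg, with 2 days between doses, over 2 weeks. The inhibitor was gp91-ds-tat, which the labels write as NOX2, and sgp91-ds-tat, taken here as the peptide written SC, served as the control. There were 5 libraries of WT with control peptide, 5 of WT with inhibitor, 2 of APP/PS1 with control peptide and 5 of APP/PS1 with inhibitor. The extraction protocol of the labels speaks of ipsilateral cortices and of surgery, without saying which surgery was done. Sex and batch are not given in the labels, nor is the promoter that drives the transgenes. The labels do not say that each library came from its own mouse, so p-values measure the spread between libraries, which may in part be technical. Libraries are named below by group and a replicate number that follows the order of the samples and pairs nothing.

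Glucocorticoids cross the cell membrane and bind the glucocorticoid receptor, which heat shock proteins and co-chaperones hold ready in the cytosol. The bound receptor enters the nucleus, where it binds DNA as a dimer and switches on target genes, some of which then damp the response. Brain endothelial cells, pericytes and astrocytes all carry the receptor, and glucocorticoids are known to tighten the blood-brain barrier.

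Total counts ranged from 7316503 to 17862965 per library, with a median of 11342154. App was higher in the APP/PS1 libraries by 0.69 on the log2 scale (exact permutation test, two-sided, p = 0.000206), and Prnp, a prion protein gene used as promoter in a common APP/PS1 strain, by 1.30 (exact permutation test, two-sided, p = 5.14e-05). Summed levels in CPM, counts scaled to the TMM library size, were 2257 to 4174 for 8 endothelial markers, 984.5 to 1740.0 for 7 pericyte and smooth muscle markers and 2949 to 5087 for 6 astrocyte markers. The preparation also held RNA of other cells, with 2412 to 4091 CPM over 5 neuronal markers, 1393 to 2470.0 over 5 oligodendrocyte markers and 25.2 to 7977 over 4 choroid plexus markers. In such bulk samples, fewer cells of a type and less RNA per cell cannot be told apart.

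A pair of libraries stood apart in these genes, 1 in each WT group: replicate 1 of WT with control peptide and replicate 3 of WT with inhibitor. These libraries held the highest and second highest levels of Fkbp5, Sgk1, Zbtb16 and Pdk4 of all 17. Their identity came from the measured values and not from a label, so they are described one by one and are not a group. In the comparisons of whole groups, 0 of the 10 genes passed the test by genotype, by inhibitor or for the interaction.

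The receptor itself, Nr3c1 (ENSMUSG00000024431), was the steadiest of the 10. It lies on chromosome 18 from 39410545 to 39519421, on the minus strand (GRCm38, GENCODE vM21). In WT with control peptide its levels in replicates 1 to 5 were 113, 133, 147.5, 175 and 118 CPM. In WT with inhibitor they were 154, 161, 122, 157 and 140.4 CPM. In APP/PS1 they were 166 and 172 CPM with control peptide and 128, 177, 153, 131 and 189 CPM with inhibitor. The 2 APP/PS1 libraries with control peptide lay above all of WT with inhibitor, and every other pair of groups overlapped. Those groups differ in both genotype and peptide and were not compared by a test. How many of all genes part them in this way was not counted, so nothing is drawn from it. The highest level was 1.68 times the lowest, and the lowest level of all was in replicate 1 of WT with control peptide, the library with the highest Sgk1.

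Fkbp5 encodes a co-chaperone that binds the receptor complex, lowers its affinity for hormone and is itself a receptor target, and it had the widest ratio of highest to lowest level. Its 17 libraries ran from 8.70 to 95.7 CPM, a ratio of 11.0. In WT with control peptide the levels in replicates 1 to 5 were 65.6, 11.8, 11.4, 12.8 and 15.3 CPM. In WT with inhibitor they were 17.4, 16.8, 95.7, 8.70 and 11.6 CPM. In each WT group 1 library was therefore far above the other 4, and those 4 overlapped between the peptides. In APP/PS1 the levels were 23.1 and 14.2 CPM with control peptide and 20.6, 10.8, 17.4, 18.6 and 29.1 CPM with inhibitor. No APP/PS1 library reached the level of the pair, and replicate 5 with inhibitor was the highest of that genotype. Fkbp5 lies on chromosome 17 from 28399094 to 28517527, minus strand, and shares ground with 4 annotated genes on both strands, so a part of its count is uncertain.

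Sgk1, a serum- and glucocorticoid-induced kinase that regulates ion channels and transporters, followed the same libraries. In WT with control peptide its levels were 278 CPM in replicate 1 and 61.6, 75.8, 109.7 and 71.8 CPM in replicates 2 to 5. In WT with inhibitor they were 205 CPM in replicate 3 and 89.7, 99.1, 73.5 and 83.7 CPM in replicates 1, 2, 4 and 5. The APP/PS1 libraries with control peptide differed widely, at 177 and 68.9 CPM. With inhibitor, APP/PS1 gave 91.1, 75.4, 80.7, 83.2 and 122 CPM, within the range of the other groups.

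Sgk1 lies on chromosome 10 from 21882184 to 21999903, plus strand, and has 6 RefSeq start sites in the promoter table (assembly GRCm38.p6, windows from 250 bases before to 50 after a start). Of 32851 such windows of all genes, 3 (0.00913%) held a full glucocorticoid element: the hexamer AGAACA, 3 bases of any kind and the reverse complement of the hexamer. A window of Sgk1 was among the 3, with the element at chr10:21993701-21993715, 189 bases before the start site at 21993890. The 90 bases around it are shown because they hold the only full match among the members' windows. They are chr10:21993671-21993760, plus strand, lie in an intron of the longer Sgk1 models, and have the element in capitals.
Sgk1: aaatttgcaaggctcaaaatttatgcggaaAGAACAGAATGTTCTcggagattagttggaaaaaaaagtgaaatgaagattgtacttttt
The hexamer alone, on either strand, occurred in 19% of all windows and in windows of Sgk1 and Tsc22d3, and the full element holds a hexamer on each strand. Windows of Fkbp5, Pdk4 and Cdkn1a held no match to any motif searched, and a match or its absence in so short a window is a description of letters only.

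Tsc22d3 encodes GILZ, a leucine zipper protein through which glucocorticoids restrain inflammatory transcription factors. Its highest level was in replicate 5 of APP/PS1 with inhibitor, at 134 CPM, where the other replicates 1 to 4 gave 57.2, 52.7, 71.9 and 51.7 CPM. The next highest were the pair, at 120.6 CPM in replicate 1 of WT with control peptide and 116 CPM in replicate 3 of WT with inhibitor. The other WT libraries ran from 31.1 to 72.7 CPM, and APP/PS1 with control peptide gave 108.7 and 47.8 CPM. High levels of Tsc22d3 thus occurred in 1 library of each of the 4 groups, and the groups overlapped. The gene lies on chromosome X from 140539528 to 140600659, minus strand.

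Zbtb16 encodes PLZF, a zinc finger transcriptional repressor induced by glucocorticoids in many cell types. Its levels in WT with control peptide were 232, 64.6, 60.3, 87.2 and 82.3 CPM in replicates 1 to 5. In WT with inhibitor they were 74.7, 116, 225, 70.7 and 71.3 CPM. Here too 1 library in each WT group lay far above the rest of its group. In APP/PS1 the levels were 151 and 68.8 CPM with control peptide and 153, 56.0, 126, 139.9 and 135 CPM with inhibitor. In APP/PS1 with inhibitor 4 of 5 libraries were above the group medians of both WT groups, 82.3 and 74.7 CPM, and replicate 2 was the lowest of all 17. Zbtb16 lies on chromosome 9 from 48654297 to 48836222, minus strand.

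Pdk4 encodes a kinase that inactivates the pyruvate dehydrogenase complex and so spares glucose when fatty acids are burned. Its level was 25.3 CPM in replicate 1 of WT with control peptide and 28.7 CPM in replicate 3 of WT with inhibitor. The other 15 libraries ran from 5.82 to 12.7 CPM and overlapped between all 4 groups. Its median was 7.92 CPM, and its counts ran from 56 to 438. It lies on chromosome 6 from 5483351 to 5496309, minus strand.

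Cdkn1a encodes p21, an inhibitor of cyclin-dependent kinases that glucocorticoids, p53 and other stresses induce. It differed from the genes above in which libraries were high. In WT with control peptide the levels were 58.4, 11.3, 10.4, 16.1 and 11.49 CPM, and in WT with inhibitor 14.01, 65.0, 46.5, 8.31 and 12.9 CPM. In APP/PS1 they were 29.6 and 12.04 CPM with control peptide and 60.01, 12.5, 15.3, 21.2 and 35.2 CPM with inhibitor. The highest level was thus in replicate 2 of WT with inhibitor and the second in replicate 1 of APP/PS1 with inhibitor, libraries in which Fkbp5 stood at 16.8 and 20.6 CPM. The summed level of the 3 neutrophil markers tested, of 5 listed, was 6.61 and 6.82 CPM in those libraries, 7.97 CPM in replicate 2 of APP/PS1 with control peptide and at most 3.35 CPM in the others. In that APP/PS1 library Cdkn1a stood at 12.04 CPM, and the part of these cells in the Cdkn1a levels was not tested. Cdkn1a lies on chromosome 17 from 29090976 to 29100727, plus strand, and overlaps 1 gene on the opposite strand.

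Mt1 and Mt2 encode metallothioneins, small proteins that bind zinc and other metals and respond to both metals and glucocorticoids. Mt1 ranged from 17.9 to 56.6 CPM, highest in replicate 1 of WT with control peptide, followed by 47.4 CPM in replicate 1 of APP/PS1 with control peptide and 43.6 CPM in replicate 2 of WT with inhibitor. Mt2 ranged from 6.07 to 17.4 CPM, highest in replicate 1 of APP/PS1 with control peptide and next in replicate 1 of WT with control peptide, at 16.4 CPM. Replicate 3 of WT with inhibitor, with the highest Fkbp5 of all, was at 36.9 CPM for Mt1 and 11.3 CPM for Mt2, inside the range of the other libraries. The groups overlapped for both genes. Mt2 (94172664 to 94173568) and Mt1 (94179082 to 94180327) are neighbours on the plus strand of chromosome 8, and their like sequences may share reads.

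The windows of these 2 genes are shown because metallothionein promoters are textbook cases of metal-responsive elements. The element searched was TGCNCNC with A or G at its first N, on both strands, which 25.7% of all 32851 windows held at least once. The Mt2 window held 4 matches and the Mt1 window 3. The stretches below run up to the base before the start site, with the matches there in capitals. They are chr8:94172378-94172617 for Mt2 and chr8:94179009-94179088 for Mt1, both on the plus strand of GRCm38.p6.
Mt2: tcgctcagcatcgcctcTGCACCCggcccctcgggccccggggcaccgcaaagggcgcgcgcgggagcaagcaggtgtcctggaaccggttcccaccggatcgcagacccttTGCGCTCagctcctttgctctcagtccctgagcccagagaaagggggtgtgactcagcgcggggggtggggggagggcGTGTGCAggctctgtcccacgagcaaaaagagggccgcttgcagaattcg
Mt1: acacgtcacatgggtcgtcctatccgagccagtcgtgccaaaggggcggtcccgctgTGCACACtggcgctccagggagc
Neither window held the full glucocorticoid element or its hexamer.

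Dusp1 encodes a phosphatase that switches off MAP kinases and is both a glucocorticoid target and an immediate early gene. Its levels in WT with control peptide were 72.1, 18.2, 16.5, 35.2 and 20.6 CPM, and in WT with inhibitor 20.6, 41.8, 36.9, 14.7 and 37.1 CPM. In APP/PS1 they were 53.3 and 21.8 CPM with control peptide and 35.2, 39.1, 34.6, 17.4 and 55.3 CPM with inhibitor. Replicate 1 of WT with control peptide was again the highest, but replicate 3 of WT with inhibitor, at 36.9 CPM, was in the middle of its group. Dusp1 lies on chromosome 17 from 26505590 to 26562128, minus strand, and overlaps 4 annotated genes, Ergic1 on the opposite strand among them. Its window held a cyclic AMP element, TGACGTCA, as did 1.79% of all windows. Such elements are known as a route to induction separate from the receptor. This match lies in an intron of the annotated Dusp1 gene, and its use was not tested. The 80 bases around the match, chr17:26508573-26508652 on the minus strand, are shown with the element in capitals.
Dusp1: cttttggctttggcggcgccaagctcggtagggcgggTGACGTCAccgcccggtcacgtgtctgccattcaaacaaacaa

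**Figure D1:**
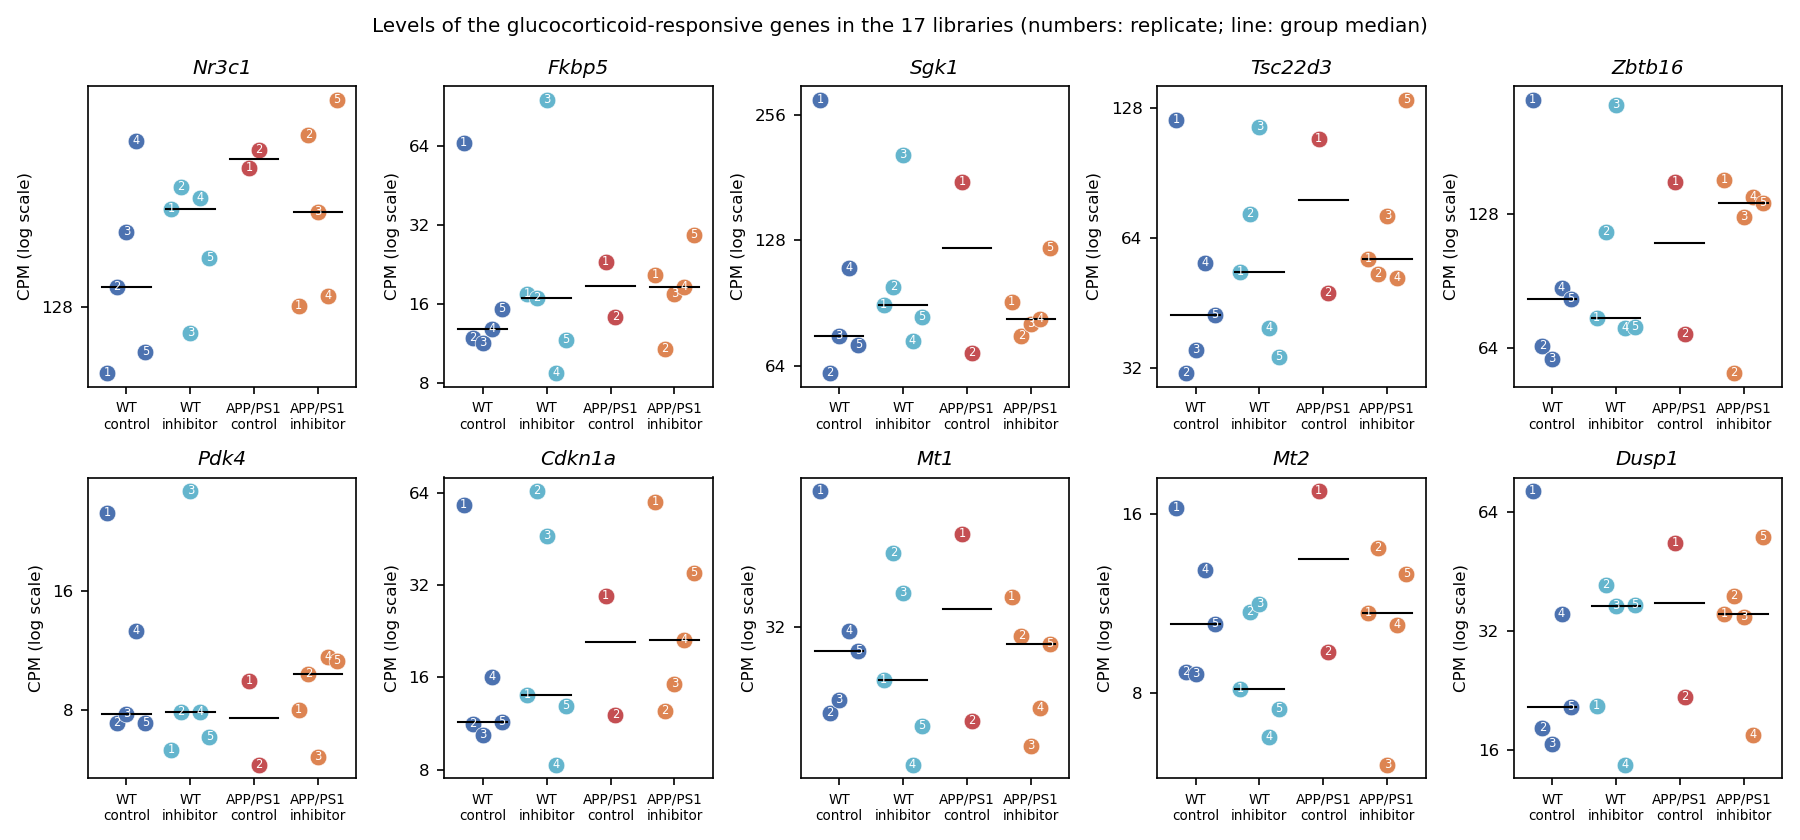
Levels of the 10 genes in each of the 17 libraries, in CPM on a log scale, by group; each numbered point is a library with its replicate number and each line is a group median. Replicate 1 of WT with control peptide and replicate 3 of WT with inhibitor lie above all other libraries for Fkbp5 (65.6 and 95.7 CPM), Sgk1, Zbtb16 and Pdk4, whereas Nr3c1 spans 113 to 189 CPM with no such gap.

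Set per kilobase of exon, the only scale on which levels of different genes are compared here, the median over libraries was highest for Mt1, at 23.1 CPM per kb. Nr3c1 followed at 19.9, Mt2 at 17.8, Sgk1 at 17.1, Zbtb16 at 16.5, Tsc22d3 at 12.3 and Dusp1 at 10.6 CPM per kb. Cdkn1a at 4.30, Pdk4 at 2.25 and Fkbp5 at 1.78 CPM per kb were the least abundant. Neighbours in this order overlapped in their ranges over the 17 libraries.

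Within groups, 9 of the 10 genes varied more than the median gene. The SD of log2 CPM within groups, pooled over the 4 groups, was 1.07 for Cdkn1a and 1.00 for Fkbp5, above 99.3% and 99.1% of the 18753 genes tested. Dusp1 (0.74), Zbtb16 (0.71), Tsc22d3 (0.70), Pdk4 (0.69) and Sgk1 (0.66) lay between the percentiles 95.5 and 97.3 of this spread. Mt1 (0.52) and Mt2 (0.42) were lower, and Nr3c1 (0.22) was at percentile 40.9, below the median of 0.25 over all genes.

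Each library was next set against the median of the other libraries of its own group, on the log2 scale. In replicate 1 of WT with control peptide, 9 of the 10 genes were above the rest of the group and 8 were above by more than 1, with a median of 1.70. Over all genes tested in that library the median was −0.0016 and 2.18% were above by more than 1. Fkbp5 was above by 2.40, Cdkn1a by 2.34, Sgk1 by 1.91, Dusp1 by 1.89, Pdk4 by 1.71, Zbtb16 by 1.67, Tsc22d3 by 1.64, Mt1 by 1.11 and Mt2 by 0.77, and Nr3c1 was at −0.31. In replicate 3 of WT with inhibitor, 9 of 10 were above and 6 by more than 1, with a median of 1.30 against −0.0082 and 1.5% over all genes. There Fkbp5 was above by 2.76, Pdk4 by 1.94, Cdkn1a by 1.78, Zbtb16 by 1.63, Tsc22d3 by 1.34 and Sgk1 by 1.24. Mt1, Mt2 and Dusp1 were above by 0.66, 0.52 and 0.41, and Nr3c1 was at −0.35. So in both libraries Fkbp5, Sgk1, Tsc22d3, Zbtb16, Pdk4 and Cdkn1a were more than 1 log2 unit above their group, and the receptor transcript was below it. Low Nr3c1 was not particular to the pair. In replicates 1 and 4 of APP/PS1 with inhibitor Nr3c1 was at −0.36 and −0.33, with Fkbp5 at 0.195 and −0.024.

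Other libraries deviated less. Replicate 5 of APP/PS1 with inhibitor had all 10 genes above the rest of its group, with a median of 0.50 and Tsc22d3 furthest at 1.29. In APP/PS1 with control peptide, replicate 1 was above replicate 2 in 9 of the 10 genes by a median of 1.10, but with 2 libraries it cannot be said which of them departs from its group. Replicates 2 of WT with inhibitor and 4 of WT with control peptide had medians of 0.54 and 0.49.

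**Figure D2:**
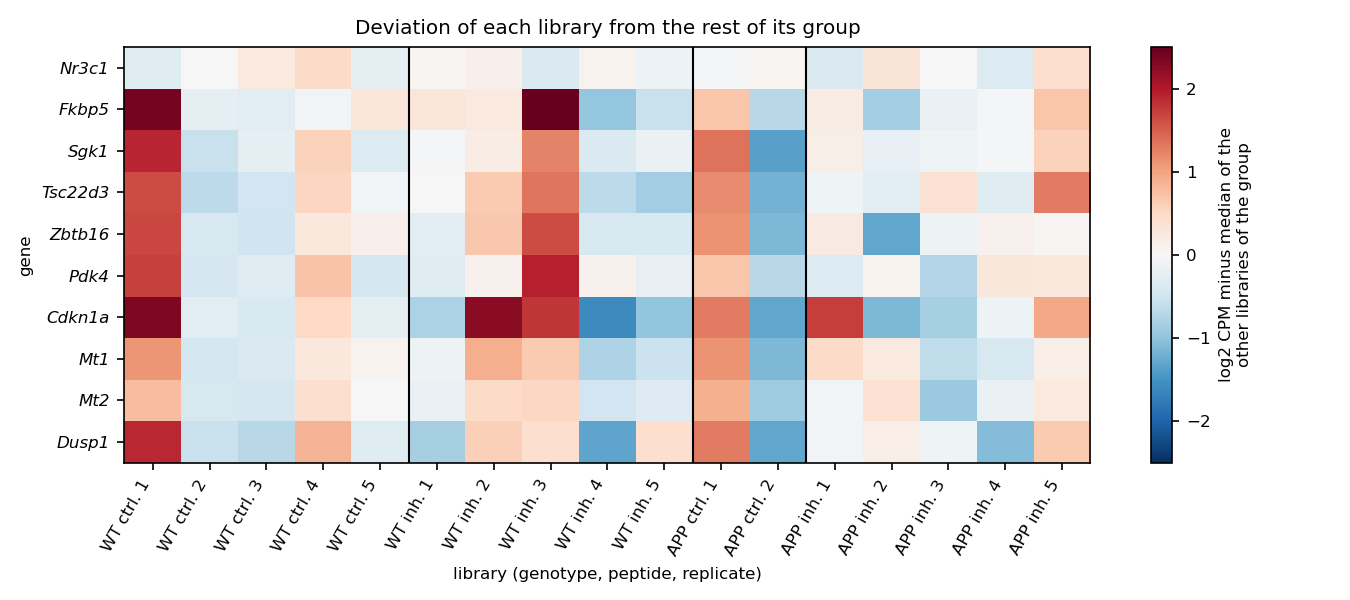
Deviation of each library from the median of the other libraries of its group, in log2 CPM, with genes in rows and libraries in columns and groups parted by lines; red is above and blue below. The darkest columns are replicate 1 of WT with control peptide (median 1.70) and replicate 3 of WT with inhibitor (median 1.30), and Cdkn1a is also dark in replicate 2 of WT with inhibitor (2.26) and replicate 1 of APP/PS1 with inhibitor (1.73).

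Markers and depth of these libraries were set beside these values. Replicate 1 of WT with control peptide was the most deeply sequenced, with 17862965 counts, and replicate 3 of WT with inhibitor held 10942498. Their summed endothelial markers, 3140 and 3113 CPM, were near the median of 3126 CPM over all libraries. Single endothelial markers moved both ways under that sum. Itm2a stood at 71.1 and 90.5 CPM against a median of 145.8 CPM, and Ly6c1 at 412.7 and 290.4 CPM against 239.4 CPM. Choroid plexus markers of the pair were low, at 25.2 and 229 CPM against a median of 2114 CPM. In 3 further libraries choroid markers were also low, without high Fkbp5: 160 CPM in replicate 2 of WT with control peptide, 223 CPM in replicate 2 of WT with inhibitor and 187 CPM in replicate 2 of APP/PS1 with control peptide, where Fkbp5 stood at 11.8, 16.8 and 14.2 CPM. The summed level of the 2 erythroid markers tested, of 3 listed, was also lowest in the pair, at 0.636 and 0.269 CPM, with the next library at 1.67 CPM and a median of 5.43 CPM. In replicate 3 of WT with inhibitor 1 of these markers, Hbb-bt, was at 0. The part of choroid plexus tissue and of blood cells in the levels of the 10 genes was not tested. RNA linked to ribosomal RNA, the genes Gm26917 and Gm42418, took 9.18% and 11.4% of counts in the pair, within the 4.76% to 16% of all libraries.

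The same pair was looked for in other genes of the pathway. The lists were drawn up for this work with earlier results of these data known, and the count of genes whose highest and second highest libraries are these 2 describes them and is no test. Of 30 further glucocorticoid targets, 16 had this pair on top, against 488 of all 18753 genes (2.60%). The 16, named after their values were seen, were Per1, Klf15, Ddit4, Errfi1, Hif3a, Angptl4, Cebpb, Nfkbia, Sult1a1, Arrdc2, Map3k6, Plin4, Pim3, Rasd1, Txnip and Slc2a1. Of 16 genes of the receptor machinery tested (chaperones, coactivators and corepressors, the mineralocorticoid receptor Nr3c2, the hormone-converting enzyme Hsd11b1 and the exporter Abcb1a among those listed) 0 had the pair on top, and of 14 immediate early genes also 0. The pair was on top for 1 of 12 p53 targets, Trp53inp1, and, among genes of lipid oxidation and FOXO signalling, for Ppara.

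Examples give the size of these levels. Plin4, a coat protein of lipid droplets, stood at 169.9 CPM in replicate 1 of WT with control peptide and 148 CPM in replicate 3 of WT with inhibitor, and at most at 37.7 CPM in the other 15 libraries. Hif3a, a hypoxia-inducible factor subunit, stood at 117 and 86.3 CPM and at most at 38.9 CPM elsewhere. Angptl4, a secreted inhibitor of lipoprotein lipase, stood at 49.5 and 41.3 CPM and at most at 8.84 CPM elsewhere. Sult1a1, a sulfotransferase, stood at 59.7 and 58.7 CPM and at most at 22.4 CPM elsewhere. For each of these 4 genes the gap to the nearest other library was wider than the whole range of those 15. Per1, a clock gene that glucocorticoids also induce, was less set apart, at 266 and 215 CPM with 202 CPM as the highest elsewhere. The median deviation of the 30 targets was 1.10 in each of the pair, with 16 and 17 of 30 above by more than 1. The p53 targets had medians of 0.051 and 0.14 and the immediate early genes of 0.76 and 0.32 in the same libraries. Of the 12 p53 targets 9 and 11 were above the rest of the group. In each library 2 of the 12 were above by more than 1, beside 2.18% and 1.5% of all genes. In the libraries with the highest Cdkn1a outside the pair, replicates 2 of WT with inhibitor and 1 of APP/PS1 with inhibitor, the 12 p53 targets had medians of −0.017 and 0.0032.

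**Figure D3:**
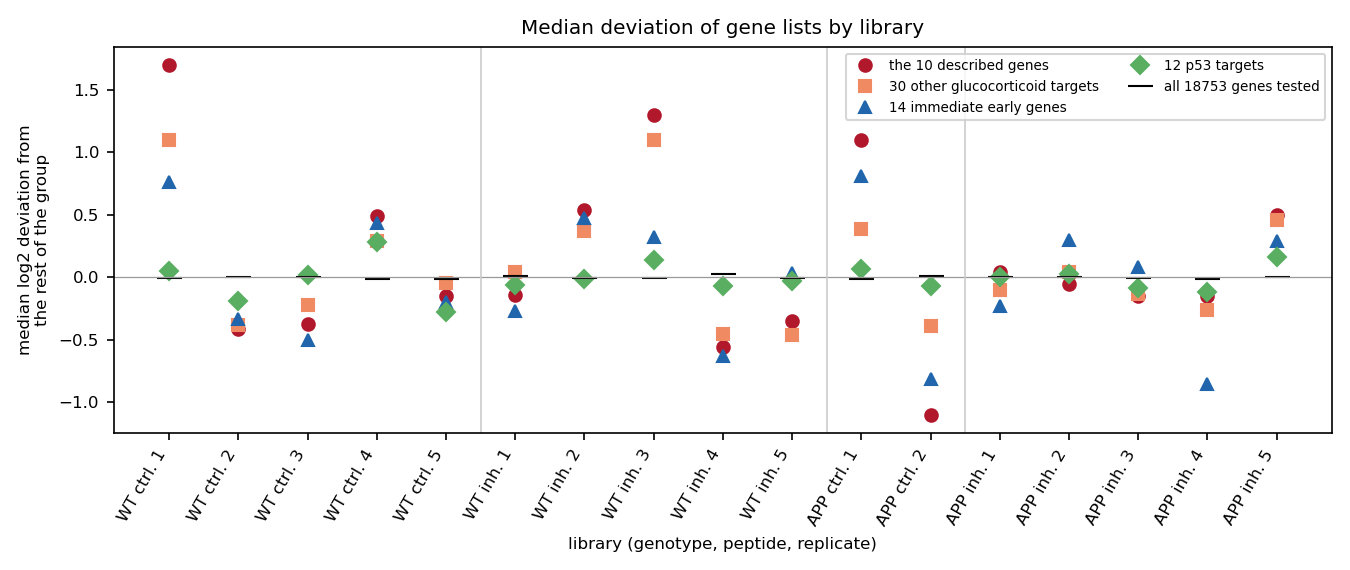
Median log2 deviation from the rest of the group, by library, for the 10 genes, 30 further glucocorticoid targets, 14 immediate early genes, 12 p53 targets and all 18753 genes tested; vertical lines part the groups. The 10 genes (1.70 and 1.30) and the further targets (1.10 and 1.10) are highest in replicate 1 of WT with control peptide and replicate 3 of WT with inhibitor, where p53 targets lie at 0.051 and 0.14.

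The 10 genes were then compared between libraries by the Pearson correlation r and Spearman's rho of log2 CPM over the 17 libraries, for 45 pairs of genes. The 36 pairs without Nr3c1 all had positive r, from 0.46 to 0.88 with a median of 0.71, and rho from 0.41 to 0.90. After adjustment over the 45 pairs (permutation test, 100000 resamples, Benjamini-Hochberg), 33 of the 36 passed 0.05 by r and 29 by rho. How many pairs of other genes would pass was not computed. The 10 genes were chosen with earlier results of these data known, so these counts are a description only. The closest pairs were Fkbp5 with Zbtb16 (r = 0.88, rho = 0.90, permutation p = 1e-05 for each, the smallest that 100000 resamples can give) and Fkbp5 with Sgk1 (r = 0.87, permutation p = 0.00018; rho = 0.74, p = 0.0012). Mt1 and Mt2 had r = 0.85 and rho = 0.88 (permutation p = 4e-05 and 3e-05). Cdkn1a was closest to Zbtb16, with r = 0.85 and rho = 0.84 (permutation p = 0.00011 and 9e-05). Since the same libraries share depth and cell makeup across genes, these values describe joint variation and not a link between 2 genes.

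Part of this rested on the extreme libraries. Without the 2 libraries farthest from the median of the first gene, r ranged from 0.19 to 0.84 over the 36 pairs and 25 kept a permutation p under 0.05, unadjusted. Fkbp5 and Zbtb16 still had r = 0.84 and Fkbp5 and Tsc22d3 r = 0.82 without the pair of libraries. Fkbp5 and Pdk4 went from r = 0.82 to 0.19 and Zbtb16 and Pdk4 from 0.69 to 0.29, so the relations of Pdk4 to those genes rested on the pair. On deviations from group means, which take out genotype and peptide, the 36 pairs had r from 0.52 to 0.92. Nr3c1 correlated with the other 9 genes at r from −0.43 to 0.10 and rho from −0.39 to 0.23, and 0 of 9 passed after adjustment. On deviations from group means Nr3c1 had r from −0.53 to 0.02, lowest with Zbtb16 (−0.53) and Fkbp5 (−0.50). The permutation test gave these an adjusted p of 0.035 and 0.049. It shuffled the deviations without allowing for the fitted group means, so these values tend to be too small and no call is drawn. On levels without the 2 libraries farthest from the Nr3c1 median, r was −0.32 with each (permutation p = 0.24 and 0.25, unadjusted).

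**Figure D4:**
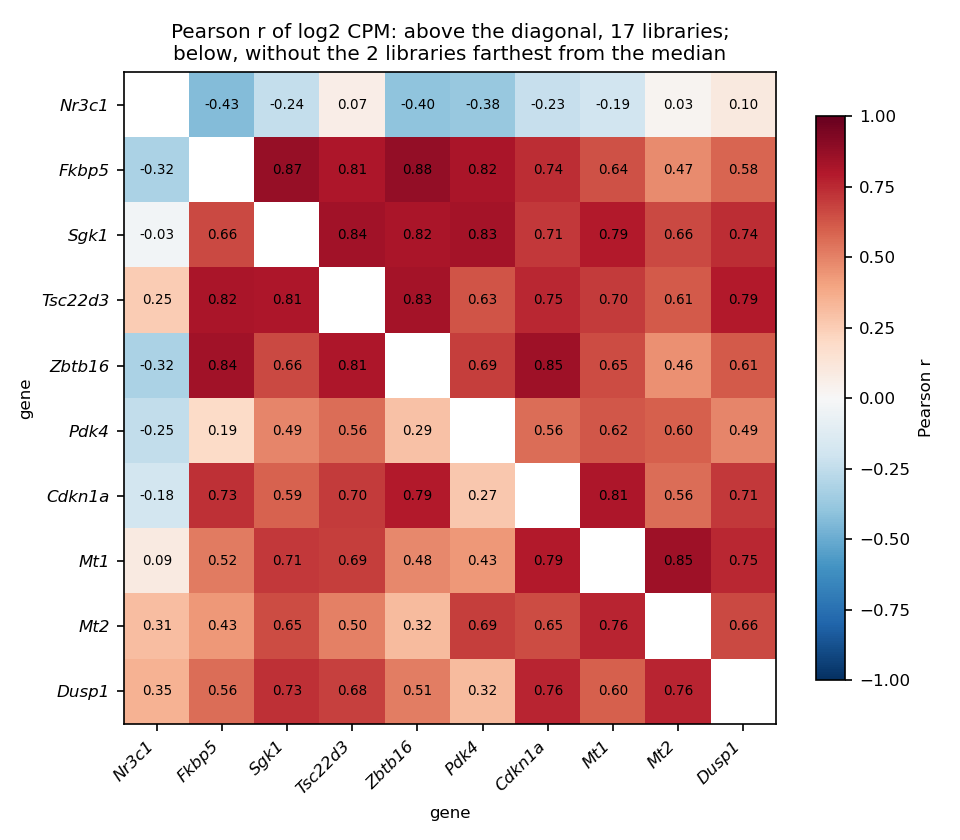
Pearson r of log2 CPM for each pair of the 10 genes, over 17 libraries above the diagonal and without the 2 libraries farthest from the median of the first gene below it. Pairs without Nr3c1 run from 0.46 to 0.88 above the diagonal and from 0.19 to 0.84 below it, and Nr3c1 runs from −0.43 to 0.10 above it.

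For each gene, the named genes were taken by rule from the 3 others with the highest r over the 17 libraries. Fkbp5 was most like Bcl2l1 and Doc2b (r = 0.94 each) and Hif3a (0.93). Sgk1 was most like Ccn2 and Bcl2l1 (0.93 each) and Timp3 (0.91), Tsc22d3 like Klf13 (0.96), Coro2a (0.94) and Irs2 (0.93), and Zbtb16 was like Dapk1 and Map3k6 (0.93 each). Pdk4 was most like Trp53inp1 (0.91), Myrip and Hipk1 (0.90 each), and Cdkn1a like Plat (0.90), Clip1 and Maff (0.89 each). Mt1 was like Fth1 (0.92) and Epn1 (0.91), Mt2 like Creg1 and Mpv17l2 (0.84 each) and Epn1 (0.83), and Dusp1 like Jund (0.94), Nr4a1 and Per1 (0.90 each). Nr3c1 was most like Slc7a1 (0.95), Steap3 (0.94) and 2510009E07Rik (0.93). Only Fkbp5 and Sgk1 (Bcl2l1) and Mt1 and Mt2 (Epn1) shared a nearest gene, so Nr3c1 was not alone in sharing none. Of the named genes, Ccn2, a matricellular protein, went from 35.2 to 227 CPM and Timp3, a metalloproteinase inhibitor, from 389 to 1301 CPM over the libraries.

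The genotype comparison asked whether these genes differ between APP/PS1 and WT microvessels. Over both peptides, 0 of the 10 genes passed edgeR's quasi-likelihood test at an adjusted p of 0.05, where 110 of all 18753 genes did (0.587%). None of the 10 had an unadjusted p under 0.05 either, and DESeq2 and limma-voom also called 0 of them. Log2 changes, APP/PS1 minus WT, ran from −0.53 for Fkbp5 (SE 0.461) to 0.30 for Tsc22d3 (SE 0.301), with a median of 0.045 beside 0.0017 over all genes. The smallest p was that of Nr3c1, at a change of 0.17 (95% interval −0.047 to 0.38, edgeR adjusted p = 0.874). The intervals of the other genes were wide: −1.5 to 0.43 for Fkbp5, −0.77 to 0.44 for Sgk1, −0.54 to 0.74 for Zbtb16 and −1.0 to 0.91 for Cdkn1a. The other 9 genes were thus measured less closely between genotypes than the receptor.

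The sign of the Fkbp5 change rested on replicate 3 of WT with inhibitor, without which it was 0.16 in place of −0.53. With that library and replicate 1 of WT with control peptide both left out, a setting chosen after seeing the data, Fkbp5 changed by 0.51, Tsc22d3 by 0.70, Zbtb16 by 0.56, Sgk1 by 0.28, Pdk4 by 0.13 and Cdkn1a by 0.40. All 10 changes were then above 0. Both libraries are WT and were picked for high levels of these genes, so leaving them out by itself raises APP/PS1 minus WT. No APP/PS1 library was left out, and the signs are therefore no evidence of a genotype difference. Again 0 of 10 passed after adjustment, while 106 of all genes did. In that fit edgeR's unadjusted p was 0.0135 for Fkbp5, 0.00813 for Tsc22d3, 0.0111 for Zbtb16 and 0.0395 for Mt2. The adjusted values were 0.567, 0.445, 0.517 and 0.742. The choice of libraries makes these p-values a description only.

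With control peptide alone, 0 of 10 passed, where 10 of all genes did (0.0533%). There the changes ran from −0.69 to 0.45, and the smallest unadjusted p was 0.0879, for Nr3c1, at a change of 0.30 (95% interval −0.050 to 0.66). With inhibitor alone, 0 of 10 passed, where 34 of all genes did (0.181%), with changes from −0.64 to 0.28. These comparisons share libraries with the one over both peptides and are not separate evidence.

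The inhibitor comparison asked whether the NOX2 peptide changed these genes. Over both genotypes, 0 of 10 passed in edgeR's quasi-likelihood test and 0% of all genes did, with 396 of all genes and 0 of the 10 at an unadjusted p under 0.05. DESeq2 and limma-voom called 0 genes as well. The changes, inhibitor minus control peptide, ran from −0.34 for Mt2 (SE 0.179, 95% interval −0.71 to 0.037) to 0.44 for Cdkn1a (SE 0.461, 95% interval −0.52 to 1.41). Mt2 had the smallest unadjusted p, 0.0737, with an edgeR adjusted p of 1. For Fkbp5 the change was 0.23 with an interval of −0.73 to 1.19, and it was −0.47 without replicate 3 of WT with inhibitor and 0.73 without replicate 1 of WT with control peptide.

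In WT alone and in APP/PS1 alone, 0 of 10 genes passed the inhibitor comparison and 0% of all genes did. At an unadjusted p under 0.05 there were 252 genes in WT and 338 in APP/PS1, and 0 of the 10 in either. The interaction, the inhibitor change in APP/PS1 minus that in WT, was passed by 0 of 10 and by 0% of all genes, with 158 genes at an unadjusted p under 0.05. Its values for the 10 genes lay between −0.32 and 0.35.

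**Figure D5:**
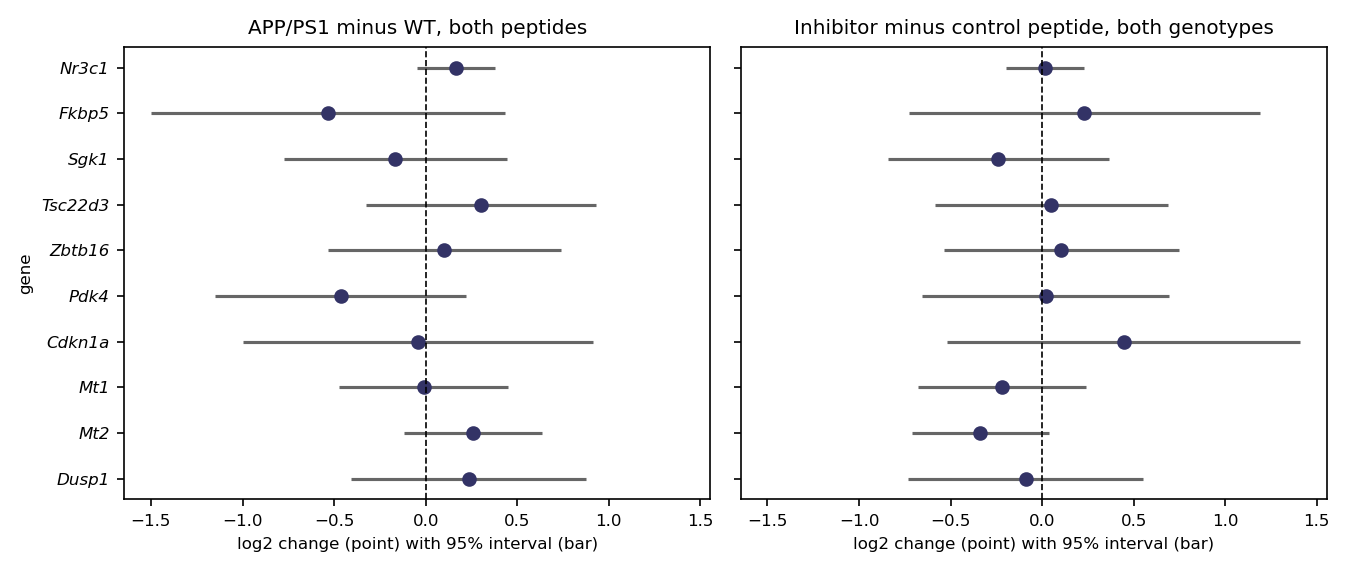
Log2 change of each of the 10 genes between genotypes (left) and between peptides (right) over all 17 libraries, with points for edgeR estimates and bars for 95% intervals. All intervals cross 0, and those of Fkbp5 (−1.5 to 0.43 on the left) and Cdkn1a are the widest while that of Nr3c1 (−0.047 to 0.38) is the narrowest.

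Other genes of the pathway were counted over the same comparisons. Of the 17 genes listed as receptor machinery 16 were tested, and 0 passed in any comparison. For genotype over both peptides 15 of the 16 had a change above 0, with a median of 0.081 beside 0.0017 over all genes, and Ncoa3, a coactivator, had the smallest p at a change of 0.10 (edgeR adjusted p = 0.863), followed by the co-chaperone gene Ptges3 at 0.15. For the inhibitor, where the median was 0.031, Ncoa3 (0.13) and Fkbp4 (0.17), the counterpart of Fkbp5 that favours receptor transport, had the smallest p, with adjusted values of 1. Of the 30 further targets 0 passed in any comparison, and for genotype the median was −0.071 with 10 of 30 above 0. Lcn2, a secreted iron-siderophore carrier of the acute phase, and Angptl4 had the smallest p among them. Lcn2 stood at 0.62 to 112.6 CPM in WT with control peptide, 3.25 to 45.1 CPM in WT with inhibitor and 1.27 to 5.21 CPM in APP/PS1, at a change of −2.89 (SE 0.799, edgeR adjusted p = 0.166). Angptl4 had a change of −1.57 (SE 0.603, edgeR adjusted p = 0.59), and its highest levels were in the pair of WT libraries. For the inhibitor the median of the 30 was −0.038, and Mertk (−0.15) and Lcn2 (−1.08) had the smallest p, again with edgeR adjusted values of 1.

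Lists were also drawn up around single genes. Of 14 immediate early genes, for Dusp1, 0 passed. For genotype 12 of 14 were above 0, with a median of 0.31 beside 0.0017 over all genes. These genes moved together between libraries. In replicate 1 of WT with control peptide 13 of the 14 were above the rest of the group. In replicate 4 of WT with inhibitor 0 were. The share of all genes above 0 was not computed, so nothing is drawn from such counts, here or in the lists before. Arc and Jun had the smallest p by genotype, at changes of 0.52 and 0.40 (edgeR adjusted p = 0.52 and 0.742). For the inhibitor Arc and Junb came first, at 0.25 and 0.19. Of 12 p53 targets, for Cdkn1a, and 8 metal and zinc genes, for Mt1 and Mt2, 0 passed in any comparison, with genotype medians of −0.014 and 0.042. The smallest p among p53 targets belonged to Aen (0.22) and Bbc3 (−0.30) by genotype and to Bbc3 (0.39) and Eda2r (−0.68) by inhibitor. Among metal and zinc genes it belonged to Mtf1 (0.13) and Gclc (−0.050) by genotype and to Hmox1 (0.22) and Mtf1 (−0.088) by inhibitor. Genes of lipid oxidation and FOXO signalling, for Pdk4, had a genotype median of −0.064. Ppara, a fatty acid sensor, had a genotype change of −0.34 (edgeR adjusted p = 0.818), and by inhibitor Ppargc1a (−0.17) and Acadl (−0.10) had the smallest p of the list, with adjusted values of 1.

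Markers of other cells that moved with genotype were Gfap, higher in APP/PS1 by 1.20 (edgeR adjusted p = 0.000125), and the microglial genes Cx3cr1, P2ry12 and Csf1r, by 0.78, 0.66 and 0.63. Summed levels of 6 microglial markers were 171 to 238 CPM in WT and 205 to 385 CPM in APP/PS1. Their part in the genotype values of the 10 genes was not tested. Of the endothelial (8), pericyte and smooth muscle (7) and choroid plexus (4) markers 0 passed for genotype over both peptides.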

How the data were processed

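RNA of 17 microvessel libraries was analysed from the raw counts of each Ensembl gene as the authors deposited them. The submitters' processing notes name cutadapt, STAR, HTSeq and DESeq2 and the builds mm10 and GRCh37, with no versions or roles. The libraries were made with a stranded kit after removal of ribosomal RNA, per the labels' protocols; whether counting used strand is not given in the sources used here. The table held 20 further value columns that matched no sample and were not used.

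Symbols and positions came from GENCODE vM21 (GRCm38), and promoter windows from RefSeq (GRCm38.p6), which matched 8 of the 10 genes. Genes were kept with filterByExpr (minimum count 10), scaled by TMM and tested with edgeR 4.0.16 quasi-likelihood F tests in R 4.3.3, adjusted by Benjamini-Hochberg over 18753 genes, threshold 0.05. An additive model gave genotype and inhibitor effects, and a model of 1 mean per group the other 5 comparisons. All 17 libraries entered each fit, so the 2 APP/PS1 libraries with control peptide were assumed to vary like the other groups. Log2 CPM used a prior count of 2. Of 136 pairs of libraries 0 were identical, and pairs within groups differed by more than sampling noise (chi-square per degree of freedom 5.37 to 91.4). Only the genotype effect of the additive edgeR fit was checked on simulated counts, and the other statistics were not.

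The 10 genes and all lists were chosen with earlier results of these data known. Named by rule were the 10 genes, the 3 genes most like each, the list genes past the threshold and, in lists with none, the 2 with the smallest p. Other names were chosen after their values were seen. A few genes selected in this way are not reported here. Alternatives were DESeq2 1.42.0, its size factors in edgeR, limma-voom with sample weights (limma 3.58.1), no filter on counts, other library sizes, fits of only the groups compared and leaving out each library.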

Additional observations from a re-analysis of the deposited data

Results flagged for a closer look

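Within a group of 5 libraries, the highest or lowest log2 CPM was looked at for each gene. It was called apart when its gap to the nearest other exceeded 0.71 of the group's range (Dixon's 95% value). Gaps and ranges were taken on log2 CPM, while the levels below are printed in CPM. For independent normal values the rule gives about 1 such call in 20 groups, and 6 of 30 were found. The 10 genes vary together over the same libraries, and the share over all genes was not computed. The 6 calls therefore cannot be set against that rate. Fkbp5 in replicate 1 of WT with control peptide was at 65.6 CPM, with the others at 11.4 to 15.3 CPM (0.833 of the range). Fkbp5 in replicate 3 of WT with inhibitor was at 95.7 CPM, with the others at 8.70 to 17.4 CPM (0.713). Zbtb16 in replicate 1 of WT with control peptide was at 232 CPM, with the others at 60.3 to 87.2 CPM (0.726). Cdkn1a in that library was at 58.4 CPM, with the others at 10.4 to 16.1 CPM (0.748). Pdk4 in replicate 3 of WT with inhibitor was at 28.7 CPM, with the others at 6.35 to 7.92 CPM (0.855).

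The sixth was a low value. Zbtb16 in replicate 2 of APP/PS1 with inhibitor was at 56.0 CPM, with the others at 126 to 153 CPM (0.807). The cause of these values was not tested.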

How the results depend on the processing

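The count of 0 of the 10 genes past the threshold held in each of the 7 comparisons under every alternative run. Of 460 recomputed changes of the 10 genes by genotype and by inhibitor, 404 kept their sign, 56 did not and 0 passed the threshold. Counts over all genes moved more. DESeq2 called 182 genes for genotype over both peptides, 45 with control peptide and 61 with inhibitor, against 110, 10 and 34, and limma-voom called 43 with control peptide. Leaving out 1 library gave 70 to 125 genes for genotype over both peptides, 4 to 17 with control peptide and 15 to 38 with inhibitor. No paired analysis was possible because the replicate numbers only follow the order of the samples and the labels carry none.

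Each change whose sign turned had a 95% interval in the main fit that crossed 0. Intervals of the recomputed changes are not given. With limma-voom, the genotype change was 0.078 for Fkbp5, 0.016 for Sgk1, 0.33 for Cdkn1a and 0.12 for Mt1, and the inhibitor change was 0.056 for Sgk1 and 0.20 for Dusp1. Without the high-Fkbp5 pair, genotype changes were 0.51 for Fkbp5, 0.28 for Sgk1, 0.13 for Pdk4, 0.40 for Cdkn1a and 0.17 for Mt1. Both libraries are WT and were picked for high levels, which by itself raises such changes. Inhibitor changes without the pair were −0.063 for Pdk4 and 0.17 for Dusp1. Leaving out 1 library moved the genotype change of Fkbp5 between −0.67 and 0.16, Sgk1 between −0.40 and 0.054, Zbtb16 between −0.042 and 0.36, Cdkn1a between −0.33 and 0.28 and Mt1 between −0.19 and 0.11. It moved the inhibitor change of Nr3c1 between −0.026 and 0.073, Fkbp5 between −0.47 and 0.73, Sgk1 between −0.46 and 0.089, Tsc22d3 between −0.16 and 0.32, Zbtb16 between −0.15 and 0.42, Pdk4 between −0.38 and 0.33 and Dusp1 between −0.23 and 0.22. Of 90 recomputed correlations, 74 kept their sign and their side of an unadjusted permutation p of 0.05, 9 lost that call, 4 gained it and 3 turned: Nr3c1 with Tsc22d3 (−0.08) and with Mt2 (−0.03) on deviations from group means, and Nr3c1 with Mt1 (0.09) without the 2 farthest libraries. Permutations of deviations did not allow for the fitted group means, so calls on them are lenient. The cause was not tested.

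Each of the 10 genes had at least 52 counts in every library. APP/PS1 with control peptide had 2 libraries, and how far depth and the spread between libraries each widened the intervals was not tested. All 40 group levels moved by less than their SD with DESeq2 size factors. A comparison that is not past the threshold does not show that the groups were alike.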
